A study of Mus musculus with 8 samples.

Results

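The response of L929IRF8 cells to interferon beta (IFNβ) was measured as the difference between 4 of the 8 arrays of the series. L929 is a mouse fibroblast line, and L929IRF8 is L929 that carries ectopic IRF8, a transcription factor normally found in immune cells. L929IRF8 cells received 1000 U/ml IFNβ for 4 h (2 arrays) or were left untreated (2 arrays), and both groups therefore carry the ectopic IRF8. The other 4 arrays hold L929 cells without ectopic IRF8, 2 after the same IFNβ treatment and 2 untreated, and they share the estimate of spread in the fit. How IRF8 was introduced, whether the line is 1 clone and whether L929 carries an empty vector are not given in the sources used here. The replicates of each group are described as independent.

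IFNβ is the type I interferon that fibroblasts release when they sense a virus. It binds a receptor of paired chains on the same and on neighbouring cells, the kinases JAK1 and TYK2 activate STAT factors, and the factor ISGF3, which holds STAT2 and IRF9, moves to the nucleus. ISGF3 binds the interferon-stimulated response element (ISRE) in promoters of antiviral genes, and the gamma-activated site (GAS) is a further promoter element of interferon responses. IRF8 binds DNA mainly with partners, among them ETS factors at composite ETS-IRF elements.

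Every probe with a gene symbol was examined, 23978 of the 25697 probes, which stand for 16593 genes. Each gene was read through its probe with the highest mean log2 level over the 8 arrays. Values are intensities, the brightness of a probe on a linear scale. The lowest of them is -23.7, so background appears to have been subtracted. The size of that value, 23.7, served as the bound of background, and 7967 genes had a mean above it in at least 1 of the L929IRF8 groups. Of these, 7402 exceeded the bound in both groups, 288 only after IFNβ and 277 only in untreated cells. Just inside the bound lay Hfe, at 20.1 and 27.4 after IFNβ against 13.2 and 22.1 untreated, and just outside lay Syt9, at 13.3 and 26.6 after IFNβ against 32.8 and 14.6 untreated.

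On each L929IRF8 array 44.3% of the probes exceeded the bound, and the log2 levels of replicate arrays correlated with r = 0.989 across probes in both groups. The Irf8 probe, ILMN_2673369, read -0.2 and 1.0 after IFNβ and 6.3 and -1.5 in untreated L929IRF8 cells. All of these readings lie under the bound, and whether the probe lies inside the expressed construct is not given in the sources used here, so it does not check the labels. Of 17 fibroblast markers measured, 11 exceeded the bound, including the filament protein Vim, Sparc and Col1a1, whereas Thy1, Dcn and Lum were near 0. Above the bound were 3 of 15 myeloid, 1 of 16 lymphoid and 1 of 17 epithelial and endothelial markers, and the leukocyte marker Ptprc was under it in both groups.

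Promoters of genes that rose with IFNβ are shown first, because the sequence that ISGF3 binds can be read in them. The 6 sequences below belong to the genes with the largest log2 rises among those whose window holds the ISRE core. Each runs from 250 bases before to 50 bases after the gene's start in the RefSeq promoter table (build GRCm38.p6), 5′ to 3′ on the gene's own strand, with each match to GAAANNGAAA or its reverse complement in capitals. The windows are chr12:26456403-26456702 on the minus strand for Rsad2, chr19:34583279-34583578 on the plus strand for Ifit3 and chr5:92348840-92349139 on the minus strand for Cxcl10. Those of the GTPase genes are chr11:58199306-58199605 (plus) for Igtp and chr11:58214727-58215026 (plus) for Irgm2, and that of Isg15 is chr4:156200769-156201068 (minus).
Rsad2: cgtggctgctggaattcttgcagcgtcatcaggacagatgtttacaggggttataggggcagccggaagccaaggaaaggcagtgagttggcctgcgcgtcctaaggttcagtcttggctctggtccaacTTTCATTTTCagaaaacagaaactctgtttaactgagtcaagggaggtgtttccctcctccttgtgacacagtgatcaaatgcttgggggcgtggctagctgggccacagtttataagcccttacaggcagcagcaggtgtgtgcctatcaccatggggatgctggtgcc
Ifit3: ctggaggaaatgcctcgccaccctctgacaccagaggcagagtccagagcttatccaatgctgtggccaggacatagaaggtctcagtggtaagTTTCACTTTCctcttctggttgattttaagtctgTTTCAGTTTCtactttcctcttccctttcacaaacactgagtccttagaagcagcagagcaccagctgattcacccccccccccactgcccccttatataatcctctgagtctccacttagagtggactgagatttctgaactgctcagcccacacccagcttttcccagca
Cxcl10: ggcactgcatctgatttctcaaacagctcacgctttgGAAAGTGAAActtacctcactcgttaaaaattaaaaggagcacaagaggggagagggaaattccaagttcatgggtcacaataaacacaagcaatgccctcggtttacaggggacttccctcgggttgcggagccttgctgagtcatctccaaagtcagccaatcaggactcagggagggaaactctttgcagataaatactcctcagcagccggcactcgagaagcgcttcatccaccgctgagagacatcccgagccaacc
Igtp: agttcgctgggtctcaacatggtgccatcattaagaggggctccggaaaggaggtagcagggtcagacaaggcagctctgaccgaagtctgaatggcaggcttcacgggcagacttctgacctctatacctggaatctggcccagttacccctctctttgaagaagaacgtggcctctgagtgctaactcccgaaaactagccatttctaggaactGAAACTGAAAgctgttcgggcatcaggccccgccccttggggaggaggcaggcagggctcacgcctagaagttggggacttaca
Irgm2: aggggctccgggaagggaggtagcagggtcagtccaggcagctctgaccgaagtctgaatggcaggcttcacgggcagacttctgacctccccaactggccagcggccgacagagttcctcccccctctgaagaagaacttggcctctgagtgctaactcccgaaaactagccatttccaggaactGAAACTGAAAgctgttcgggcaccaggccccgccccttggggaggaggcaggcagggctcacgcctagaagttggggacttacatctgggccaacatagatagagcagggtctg
Isg15: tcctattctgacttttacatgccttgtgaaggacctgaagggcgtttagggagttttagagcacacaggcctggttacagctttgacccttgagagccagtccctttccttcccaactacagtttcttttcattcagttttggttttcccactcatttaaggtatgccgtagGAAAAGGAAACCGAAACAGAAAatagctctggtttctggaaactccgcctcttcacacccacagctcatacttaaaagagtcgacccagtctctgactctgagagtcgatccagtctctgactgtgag
In Igtp and Irgm2, which lie close together on chromosome 11, the match has the same 10 letters and begins 34 and 64 bases before the start. Isg15 has 3 overlapping matches within 1 run. Not all strongly induced genes have the core in this window, as the neighbouring genes Oasl2 (chr5:114896684-114896983, plus) and Oasl1 (chr5:114922990-114923289, plus) show, and no capitals are therefore marked.
Oasl2: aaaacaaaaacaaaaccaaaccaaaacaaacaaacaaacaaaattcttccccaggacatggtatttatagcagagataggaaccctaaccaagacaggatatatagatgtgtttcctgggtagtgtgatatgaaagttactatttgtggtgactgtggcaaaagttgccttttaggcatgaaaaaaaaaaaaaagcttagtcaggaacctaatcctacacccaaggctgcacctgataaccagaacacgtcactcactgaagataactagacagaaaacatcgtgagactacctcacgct
Oasl1: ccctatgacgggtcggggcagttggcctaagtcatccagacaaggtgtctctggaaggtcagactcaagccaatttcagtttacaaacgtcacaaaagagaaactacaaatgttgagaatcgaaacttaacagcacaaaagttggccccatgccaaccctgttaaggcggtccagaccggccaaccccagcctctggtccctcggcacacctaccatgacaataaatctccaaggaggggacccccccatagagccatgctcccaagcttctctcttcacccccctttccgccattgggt

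IFNβ raised many more genes than it lowered, and the rises were larger. Genes were tested with limma across all probes at an adjusted p under 0.05. Of the 7967 genes above the bound, 133 were higher after IFNβ (1.67%) and 32 were lower (0.402%). Among all 16593 genes, those above the bound included, 0.922% were higher and 0.253% lower. In 77 of the 133 the fold could be measured on all 4 arrays, with a median of 4.2 and a range of 1.27 to 130, and 16 of them rose at least 10-fold. In 47 others both untreated arrays were at or under the bound, so the fold is a lower limit, written as "at least". Both untreated arrays were at or below 0, and so set to the floor, in 15 of the 133. The remaining 9 had 1 untreated array on each side of the bound and get no fold. Among the 32 lower genes 29 had measured folds, from 1.23 to 2.26 with a median of 1.57, and 3 have lower limits. A further 20 higher and 10 lower genes had both group means under the bound. Counted by probe, with and without a gene symbol, 222 of 25697 were higher (0.864%) and 54 lower (0.21%), and among the 1719 probes without a symbol 16 were higher (0.931%) and 2 lower (0.116%).

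These counts rest on the spread shared over 8 arrays. For the L929IRF8 change, leaving out either array of an L929 group gives the same fit, because the array that remains adds no spread. Such a pair alters only the estimate of spread and no L929IRF8 value. Counts out of the 8 fits include both members of each pair. Leaving out either untreated L929 array gave 73 higher and 9 lower genes, either IFNβ L929 array 77 and 10, IFNβ L929IRF8 replicate 1 gave 88 and 17 and untreated L929IRF8 replicate 1 gave 86 and 17, while a fit to the 4 L929IRF8 arrays alone gave 1 and 0. Of the 133 and 32 genes, 60 and 4 passed in each of the 8 fits that left out 1 array. For all 165 genes the IFNβ arrays lay wholly above or wholly below the untreated arrays, but so did 12.8% (above) and 26.9% (below) of the genes above the bound. The median log2 change of those genes was -0.08. In RNA from whole cultures, fewer responding cells and less RNA per cell cannot be told apart. Replicate 1 was the brighter of the IFNβ L929IRF8 arrays in 103 of the 133 risen genes, and likewise in 103 among the IFNβ L929 arrays.

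**Figure D1:**
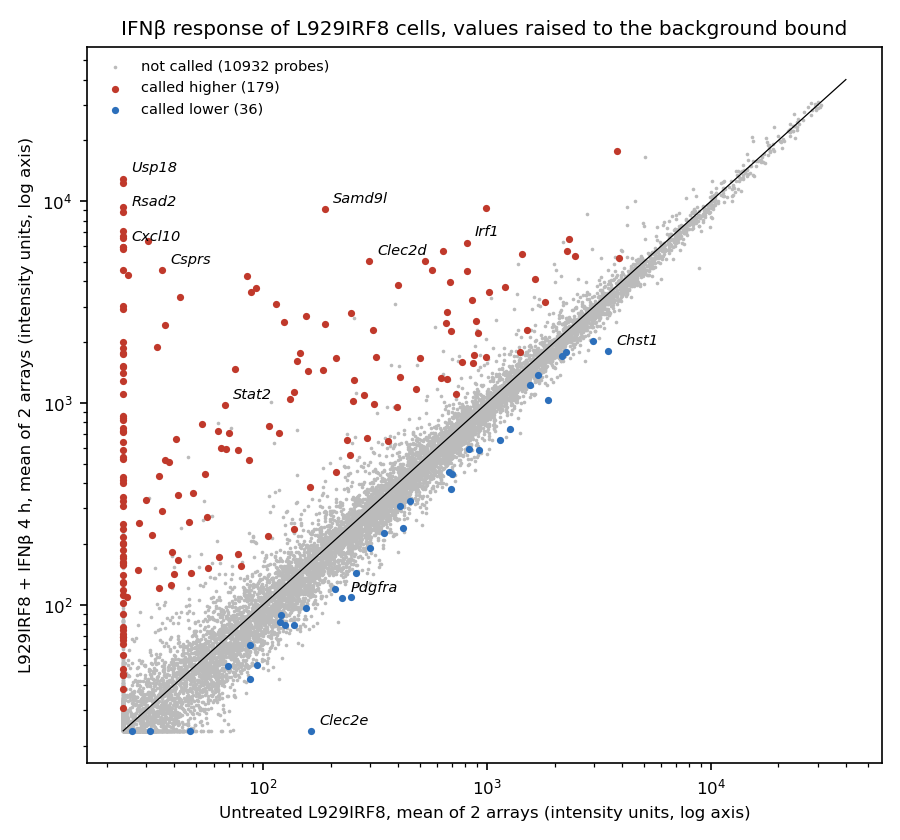
Mean intensity of each named probe after IFNβ (vertical, log scale) against that in untreated L929IRF8 cells (horizontal, log scale), with values under 23.7 drawn at 23.7. Points that passed the test are coloured, and those along the left edge, among them Usp18, Rsad2 and Cxcl10, had an untreated mean under the bound.

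Among genes measured on all arrays, the largest rise was that of Csprs, a gene related to the nuclear protein Sp100. Csprs read 5492 and 3606 after IFNβ against 44.5 and 26.3 in untreated cells, a 130-fold difference (log2 6.46 ± 0.34 SE, limma adjusted p = 0.00543). Phf11d, which encodes a PHD finger protein, read 3885 and 2819 after IFNβ against 55.6 and 29.8 untreated, an 81.3-fold rise (adjusted p = 0.00607 by limma). Samd9l, a cytoplasmic antiviral protein, read 10722 and 7567 after IFNβ against 205 and 170.4 untreated, a 48.2-fold rise (limma adjusted p = 0.00173). For each of these genes the difference between the IFNβ replicates was small beside the difference between the groups.

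Further genes with large measured rises were Nrap, Plekha4 and Clec2d. Nrap, named for a muscle anchoring protein, read 3255 and 2889 after IFNβ against 100.5 and 127 untreated through ILMN_3138732, a 27.1-fold rise (limma adjusted p = 0.00312), while its 2 other probes stayed under the bound in both groups. Plekha4, a lipid-binding protein, read 603 and 411 after IFNβ against 25.9 and 50.1 untreated (13.8-fold, limma adjusted p = 0.028), a call lost in 7 of the 8 fits that left out 1 array (adjusted p from 0.0517 to 0.107). Clec2d, a C-type lectin that serves as a ligand of natural killer cell receptors, was among the most even: 4941 and 5169 after IFNβ against 282 and 314 untreated, 17.0-fold (limma adjusted p = 0.000895).

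The genes with the highest lower limits were dark in untreated cells and bright after IFNβ. Usp18, the protease that removes Isg15 from proteins and holds back the interferon receptor, read 14354 and 11476 after IFNβ against 14.6 and 14.5 untreated, at least 542-fold higher (limma adjusted p = 0.000855). Ifit3, a partner of the RNA-binding Ifit complex, read 14458 and 10014 after IFNβ against 20.2 and 14.6 untreated, at least 508-fold higher (limma adjusted p = 0.00101). Rsad2, the enzyme viperin that makes a chain-terminating nucleotide, read 11563 and 6017 after IFNβ against -2.8 and 1.3 untreated, at least 352-fold higher (limma adjusted p = 0.00193). The other probes of Usp18 and of Ifit3, 2 each, were also at least 244-fold higher. Rsad2 and Ifit3 are among the genes whose promoters are printed above.

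**Figure D2:**
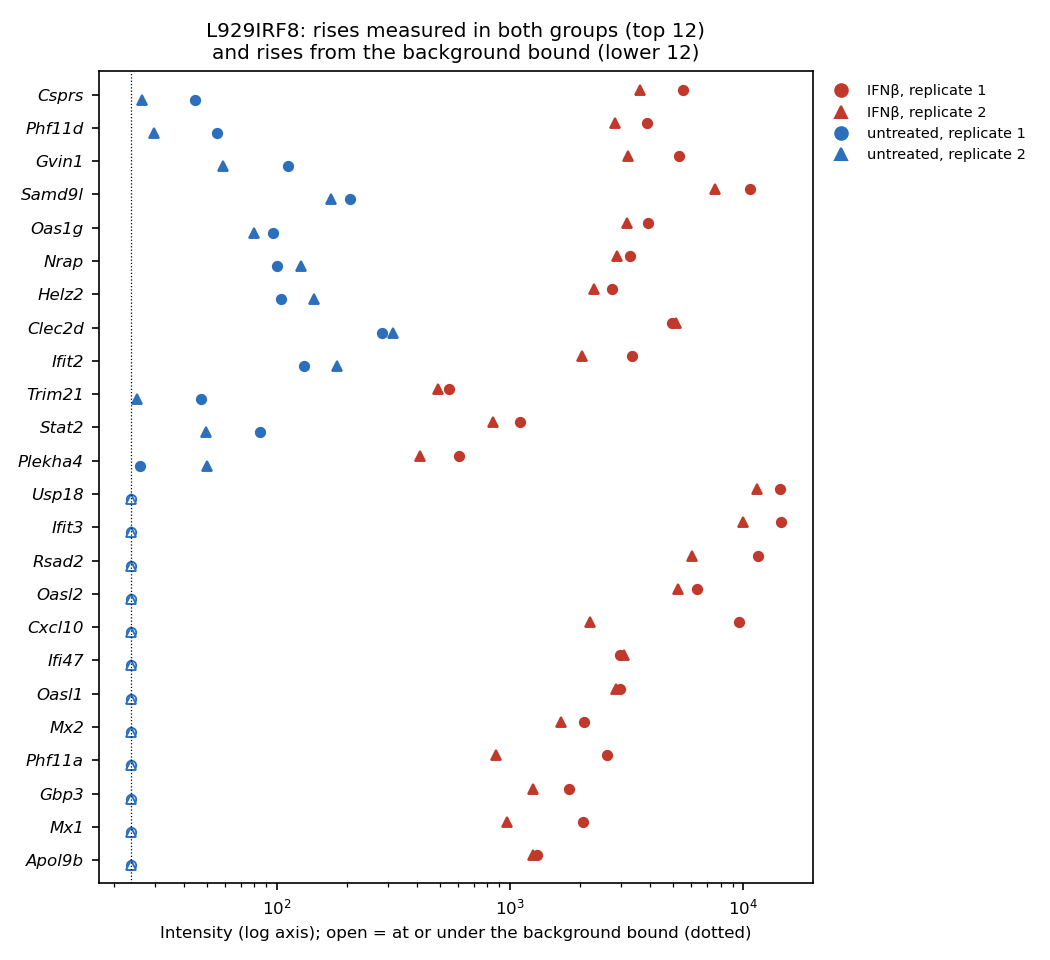
Intensity (log scale) on each array for the genes with the largest measured folds and the largest lower limits, IFNβ L929IRF8 arrays drawn beside untreated ones, with the bound of 23.7 marked. The IFNβ points of every gene shown lie above its untreated points, which for Usp18, Ifit3, Rsad2 and Oasl2 lie under the bound.

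Some sensors that detect viral nucleic acid rose. Of 14 genes of cytosolic and endosomal RNA sensing, 4 passed, all higher, and the median log2 change was 0.72, against -0.01 over all genes. Ddx58, the helicase RIG-I, read 996 and 725 after IFNβ against 9.3 and 9.5 untreated, at least 35.9-fold higher (limma adjusted p = 0.00526). Its regulator Dhx58 (LGP2) was at least 46.2-fold higher, the endosomal receptor Tlr3 at least 13.3-fold and the helicase Ifih1 (MDA5) at least 2.38-fold, with the call of Tlr3 lost in 2 of the 8 fits that left out 1 array. Their adaptor Mavs read 160.5 and 245 after IFNβ against 255 and 282 untreated and did not pass (limma adjusted p = 0.742).

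On the DNA side, 5 of 10 genes passed, all higher, with a median log2 change of 1.36; leaving out any 1 L929 array left 1. Ifi202b, which binds cytosolic DNA without a signalling domain, read 10090.5 and 8336 after IFNβ against 768 and 1204 untreated, 9.54-fold higher (limma adjusted p = 0.0128). Trex1, the exonuclease that destroys cytosolic DNA, read 536 and 646 after IFNβ against 66.5 and 70.3 untreated, 8.6-fold higher (limma adjusted p = 0.00529). Ifi204, Ifi205 and the nucleotide hydrolase Samhd1 were the other members that rose. Leaving out 1 array ended the call of Ifi202b in 4 of 8 fits, of Ifi205 and Samhd1 in 6 and of Ifi204 in 8 (limma adjusted p up to 0.12 for Ifi204).

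Several factors that carry the interferon signal rose. Of 8 interferon regulatory factors, 4 passed, all higher, with a median log2 change of 2.01. Irf7, which drives further interferon genes, read 434 and 395 after IFNβ against -0.6 and -7.4 untreated, at least 17.5-fold higher (limma adjusted p = 0.00732). Irf9, the DNA-binding part of ISGF3, read 1111 and 1164 after IFNβ against 138 and 136 untreated, 8.32-fold higher (limma adjusted p = 0.00154). Irf1, an activator, rose 7.71-fold, at 6565 and 5884 after IFNβ against 889 and 731 untreated, and its antagonist Irf2 rose 2.15-fold; 2 of the 8 fits that left out 1 array ended the call of Irf1. Irf3, which is activated by phosphorylation, read 1228 and 1266 after IFNβ against 1369 and 1399.6 untreated and did not pass (limma adjusted p = 0.472).

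Of 18 interferon receptor and JAK-STAT genes, 3 passed, all higher, and the list's median log2 change was 0.10; 1 passed without any 1 of the L929 arrays. Stat2, the transactivating part of ISGF3, read 1108 and 842 after IFNβ against 85.0 and 49.8 untreated, 14.8-fold higher (limma adjusted p = 0.0128, and 0.0594 to 0.0601 in the 4 of 8 fits without 1 array that ended the call). Batf2, a basic leucine zipper factor, read 588 and 575 after IFNβ against 17.8 and 29.0 untreated (log2 3.94 ± 0.21 SE, limma adjusted p = 0.00568). The kinases did not pass: Jak1 read 196 and 218 after IFNβ against 175 and 182 untreated, and Tyk2 read 652 and 558 after IFNβ against 725 and 618 untreated (limma adjusted p = 0.891 for Jak1 and 0.796 for Tyk2).

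Of 17 inhibitors of JAK-STAT signalling, 1 passed, Usp18, and the median log2 change was -0.05; 2 passed without either 1 of the IFNβ L929IRF8 arrays. Socs1, which blocks JAK kinases, read 59.9 and 108 after IFNβ against 11.5 and 7.0 untreated, but its replicates spread too widely to pass (limma adjusted p = 0.061). Socs3, its relative that acts mainly on other cytokine receptors, read 1051 and 1099.5 after IFNβ against 913 and 1146 untreated, with overlapping groups.

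Most of the measured effectors that bind or destroy viral RNA rose. Of 20 measured, 14 passed and all 14 were higher, with a median log2 change of 2.73; 9 passed without untreated L929IRF8 replicate 1. Oasl2 read 6343 and 5269 after IFNβ against 2.0 and -3.7 untreated, at least 244-fold higher (limma adjusted p = 0.000735). Oasl1, which binds RNA without making oligoadenylate, read 2970.2 and 2844 after IFNβ against 5.4 and -2.9 untreated, at least 123-fold higher (limma adjusted p = 0.00109). The oligoadenylate synthetases, whose product activates RNase L, include Oas3, at least 2.65-fold higher, Oas2, at least 27.1-fold higher, and Oas1g, whose rise was measured as 40.3-fold (3913 and 3174 after IFNβ against 95.9 and 79.6 untreated). The call of Oas3 was lost in all 8 fits without 1 array and that of Oas2 in 6. Several Oas1 genes are close copies of each other, and how well their probes separate them was not tested.

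Ifit2, which binds viral RNA, read 3344 and 2027 after IFNβ against 130.4 and 180.5 untreated, 17.0-fold higher (limma adjusted p = 0.022), and its second probe was 12.1-fold higher. Its call was lost in 7 of the 8 fits that left out 1 array (adjusted p from 0.0515 to 0.0824). Helz2, a helicase, rose 20.4-fold, at 2726 and 2294 after IFNβ against 104 and 144 untreated. The kinase Eif2ak2 (PKR), which halts translation on sensing double-stranded RNA, rose 8.93-fold, at 6017 and 5309.7 after IFNβ against 656 and 610.5 untreated (limma adjusted p = 0.000895). The RNA-editing enzyme Adar rose 3.87-fold through its brightest probe and the exonuclease Isg20 3-fold, with the call of Isg20 lost in 6 of the 8 fits without 1 array. Eif2ak2 and the brightest probe of Adar were already well above the bound in untreated cells, whereas the Oasl genes were not. Other Adar probes above the bound were dimmer untreated, at 38.8 and 58.6 (ILMN_2704372) and 31.9 and 29.8 (ILMN_3093622). Their log2 rises were 2.51 and 2.84, against 1.89 for the brightest probe.

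Isg15, a ubiquitin-like protein joined to other proteins after interferon, read 6615 and 5994 after IFNβ against 38.1 and 23.1 untreated (log2 7.10 ± 0.19 SE, limma adjusted p = 0.000895), with no fold because 1 untreated array was under the bound. Of 5 genes of its pathway 3 passed, all higher. Ube2l6, the conjugating enzyme, rose 6.10-fold, at 531 and 515 after IFNβ against 94.5 and 77.8 untreated, and Usp18 removes the modifier. The call of Ube2l6 was lost in 6 of the 8 fits without 1 array (limma adjusted p from 0.0509 to 0.061). The activating enzyme Uba7 read 3185 and 2109 after IFNβ against 339 and 172 untreated, 10.7-fold higher, and did not pass (limma adjusted p = 0.0662). The promoter of Isg15 shown above is the one with 3 ISRE core matches.

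Of 32 factors that restrict viral entry or replication, 13 passed, all higher, with a median log2 change of 1.77; 5 passed without either 1 of the untreated L929 arrays. Mx2 and Mx1, dynamin-like GTPases that block viruses, were among them. Fv1, which restricts retroviruses and fell, was not on this list and is described further below. Mx2 read 2075 and 1653 after IFNβ against 3.5 and -8.1 untreated, at least 78.2-fold higher (limma adjusted p = 0.000895), and Mx1 read 2049.9 and 974 after IFNβ against -1.8 and -3.6 untreated, at least 59.6-fold higher (limma adjusted p = 0.00611). Bst2 (tetherin), which holds budding virus at the cell surface, rose 8.12-fold, at 1836 and 1504 after IFNβ against 162 and 259 untreated. Ifitm3, which blocks fusion in endosomes, was bright throughout, at 19483 and 15998 after IFNβ against 4399 and 3232 untreated, and rose 4.68-fold (limma adjusted p = 0.0221). Phf11a was at least 63.6-fold higher, with a wide gap between replicates, 2602 and 874 after IFNβ against 5.3 and -2.7 untreated, and its call and that of Bst2 were lost in 6 of the 8 fits without 1 array, that of Ifitm3 in 5.

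Many GTPases that attack the vacuoles of intracellular pathogens rose. Of 10 guanylate-binding protein genes 7 passed, all higher, and the median log2 change was 3.55; leaving out 1 array left 3 or 4. Gbp3 read 1784 and 1259.9 after IFNβ against 20.2 and 5.0 untreated, at least 63.3-fold higher (limma adjusted p = 0.00634). Gbp2b was at least 34.3-fold higher, at 969 and 681 after IFNβ against 8.0 and -5.6 untreated, and Gbp7 at least 16.2-fold. Gbp2 read 785 and 655 after IFNβ against 25.5 and 8.1 untreated (log2 4.54 ± 0.49 SE, limma adjusted p = 0.0398), a call lost in all 8 fits without 1 array, while that of Gbp7 was lost in 2.

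Of 12 immunity-related and very large GTPases 6 passed, all higher, with a median log2 change of 2.85, and 4 passed without either 1 of the untreated L929 arrays. Igtp read 7707 and 5682 after IFNβ against 34.6 and 7.6 untreated (log2 7.58 ± 0.47 SE, limma adjusted p = 0.0081). Irgm2, which guards against attack on the cell's own membranes, read 4689 and 4438 after IFNβ against 26.3 and 7.8 untreated (log2 7.17 ± 0.29 SE, limma adjusted p = 0.00232). Ifi47 read 2963 and 3072 after IFNβ against 23.7 and 8.5 untreated, at least 127-fold higher, and Gvin1 rose 51.1-fold, at 5309.7 and 3219 after IFNβ against 111 and 58.9 untreated. The untreated replicates of Igtp and Irgm2 lay on either side of the bound, which is why no fold is given. The call of Gvin1 was lost in all 8 fits that left out 1 array (limma adjusted p from 0.0553 to 0.0888).

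Antigen presentation through MHC class I moved less evenly. Of 8 immunoproteasome and proteasome activator genes, 2 passed, both higher, and 1 passed whichever array was left out. Psmb9, a catalytic subunit, read 148 and 149 after IFNβ against 28.4 and 26.6 untreated, 5.40-fold higher (limma adjusted p = 0.00306). Psmb10, another, rose 3.28-fold, at 2473 and 2045 after IFNβ against 779 and 602 untreated (limma adjusted p = 0.0487), while the third such subunit, Psmb8, read 487 and 387 after IFNβ against 169 and 115 untreated and did not pass (limma adjusted p = 0.341).

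Of 27 class I and peptide loading genes 3 passed, all higher, with a median log2 change of 0.44. Nlrc5, the activator of class I genes, rose 5.12-fold, at 1342 and 1265 after IFNβ against 271 and 239 untreated (limma adjusted p = 0.00358). H2-T24 and H2-M3, non-classical class I genes, were the others that passed. The peptide transporter Tap1 read 981 and 601 after IFNβ against 79.7 and 45.8 untreated, 12.7-fold higher (limma adjusted p = 0.0516), and B2m, the light chain, read 21656 and 17824 after IFNβ against 17509.6 and 13279 untreated (limma adjusted p = 0.759 for that probe, ILMN_1216746). Neither passed. Of 16 class II and costimulation genes only Cd86 passed, with both groups under the bound, and its call was lost in 6 of the 8 fits that left out 1 array (limma adjusted p from 0.107 to 0.131). The calls of Psmb10 and H2-T24 were likewise lost in 8 and 6 of these fits.

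Among 30 chemokines 3 passed, all higher, and 15 exceeded the bound in at least 1 group; 1 passed without any 1 of the L929 arrays or without untreated L929IRF8 replicate 1. The median log2 change of the chemokines was 0.04, and 0.922% of all genes were higher. Cxcl10, which attracts activated T cells, read 9581 and 2209 after IFNβ against 8.0 and -3.6 untreated. It was at least 194-fold higher, with a log2 change of 7.88 ± 0.90 (SE). Its replicates differed widely, and its call (limma adjusted p = 0.0437) was lost whichever array was left out (adjusted p from 0.0724 to 0.133), except IFNβ L929IRF8 replicate 2 (adjusted p = 0.0388). Ccl8, which attracts monocytes, was steady at 102 and 101 after IFNβ against 1.7 and 7.5 untreated, at least 4.29-fold higher (limma adjusted p = 0.00732). Ccl7 and Ccl2, also monocyte attractants, were bright before treatment and did not pass, with Ccl7 at 20481 and 12583 after IFNβ against 5082 and 5064 untreated (limma adjusted p = 0.17).

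Of 37 cytokine and growth factor genes 3 passed, all higher, and 5 passed without IFNβ L929IRF8 replicate 2. The list's median log2 change was 0.10, and 0.922% of all genes were higher. Il15, which maintains natural killer and memory T cells, rose 7.86-fold (limma adjusted p = 0.00224). It read 937 and 1144 after IFNβ against 137 and 127 untreated. Il6 read 179.9 and 169.6 after IFNβ against 1.9 and 4.2 untreated, at least 7.37-fold higher (limma adjusted p = 0.00818), and the death ligand Tnfsf10 (TRAIL) was at least 3.74-fold higher, at 102 and 76.8 after IFNβ against -3.9 and -6.4 untreated. Csf1, the macrophage growth factor for which L929 cells are known, read 11833 and 8819 after IFNβ against 8978 and 6534 untreated, and the groups overlapped (limma adjusted p = 0.788).

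Genes of cell death and of nuclear bodies rose in part. Of 34 cell death genes 4 passed, all higher, where 0.922% of all genes were higher. The list's median log2 change was 0.21. Daxx, a histone chaperone of PML bodies, rose 12.9-fold, at 2731 and 2168 after IFNβ against 197 and 180.2 untreated (limma adjusted p = 0.00224). Casp4, the caspase that senses bacterial lipopolysaccharide, rose 3.78-fold through its brightest probe, at 3074 and 3366 after IFNβ against 871 and 832 untreated. Its probes ILMN_1254655 and ILMN_2811746 were also higher (log2 1.86 and 0.77) and did not pass (limma adjusted p = 0.0516 and 0.57). The necroptosis effector Mlkl read 3331 and 3353 after IFNβ against 1365 and 1885 untreated and did not pass (limma adjusted p = 0.103).

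Of 11 genes of PML bodies 5 passed, all higher, with a median log2 change of 0.73, and 2 passed without any 1 of the L929 arrays. Pml itself, the scaffold of these bodies, read 5472 on both arrays after IFNβ against 1509 and 1368 untreated, 3.81-fold higher (limma adjusted p = 0.00621). Its dim probe ILMN_2731835 did not pass, at 53.2 and 21.1 after IFNβ against 50.7 and 41.3 untreated. Sp100 and Sp140 were at least 5.31-fold and at least 8.35-fold higher, and their calls were lost in 6 (Sp100) and 8 (Sp140) of the 8 fits without 1 array.

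Among smaller families, Parp14, an ADP-ribosyltransferase, was the 1 of 11 PARP family genes that passed, at 4816 and 3777 after IFNβ against 33.1 and 16.6 untreated (log2 6.74 ± 0.23 SE, limma adjusted p = 0.00154). Of 29 TRIM ubiquitin ligases 3 passed, all higher, while the median log2 change was -0.06; 0 passed without either 1 of the untreated L929 arrays. Trim21, the cytosolic antibody receptor, rose 15-fold, at 546 and 489.7 after IFNβ against 47.4 and 25.2 untreated, and Trim30d was at least 31.4-fold higher; each lost its call in 2 of the 8 fits without 1 array. In the Schlafen family, Slfn2 read 499 and 578 after IFNβ against 17.3 and 24.7 untreated (log2 3.91 ± 0.12 SE, limma adjusted p = 0.00111).

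A few complement and metabolic genes rose. The median log2 change of the 16 complement genes was 0, and that of the 22 metabolic genes was 0.26. C2, a protease of the classical pathway, rose 3.45-fold, at 4166 and 2924 after IFNβ against 1091 and 939 untreated (limma adjusted p = 0.0373), and C4b rose 3.97-fold, at 192 and 142 after IFNβ against 45.4 and 38.2 untreated. They were 2 of 16 complement genes, and 0 passed without any 1 array other than the IFNβ L929IRF8 ones. Of 22 interferon-linked metabolic genes 3 passed (1 without either 1 of the untreated L929 arrays), among them Apol9b, a lipid-binding apolipoprotein, at 1302 and 1259 after IFNβ against 12.9 and 16.8 untreated, at least 54.0-fold higher (limma adjusted p = 0.000208). The others were Nt5c3 and Samhd1, which act on nucleotides, and their calls were lost in 3 (Nt5c3) and 6 (Samhd1) of the 8 fits without 1 array. Mmp2, a gelatinase, was the 1 of 38 matrix genes that passed, where 0.922% of all genes were higher. The median log2 change of the matrix genes was -0.008. Mmp2 read 66.5 and 66.8 after IFNβ against 9.8 and 11.2 untreated, at least 2.81-fold higher (limma adjusted p = 0.0398). Its call was lost without any 1 array other than the IFNβ L929 ones.

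Several risen genes belong to none of these groups. They are named here after their values were seen, from the genes that passed in every fit that left out 1 array. Trafd1, a brake on innate signalling, rose 9.60-fold, at 3806 and 3836 after IFNβ against 384 and 413 untreated, and Myd88, the adaptor of Toll-like receptors, rose 2.79-fold, at 6675 and 6329 after IFNβ against 2305 and 2352 untreated. Nod1, a cytosolic sensor of bacterial cell wall, rose 8.12-fold, at 418 and 470.2 after IFNβ against 49.1 and 60.7 untreated. Hdc, the enzyme that makes histamine, was at least 13.0-fold higher, at 328 and 288 after IFNβ against 13.8 and 17.6 untreated (limma adjusted p = 0.00417).

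**Figure D3:**
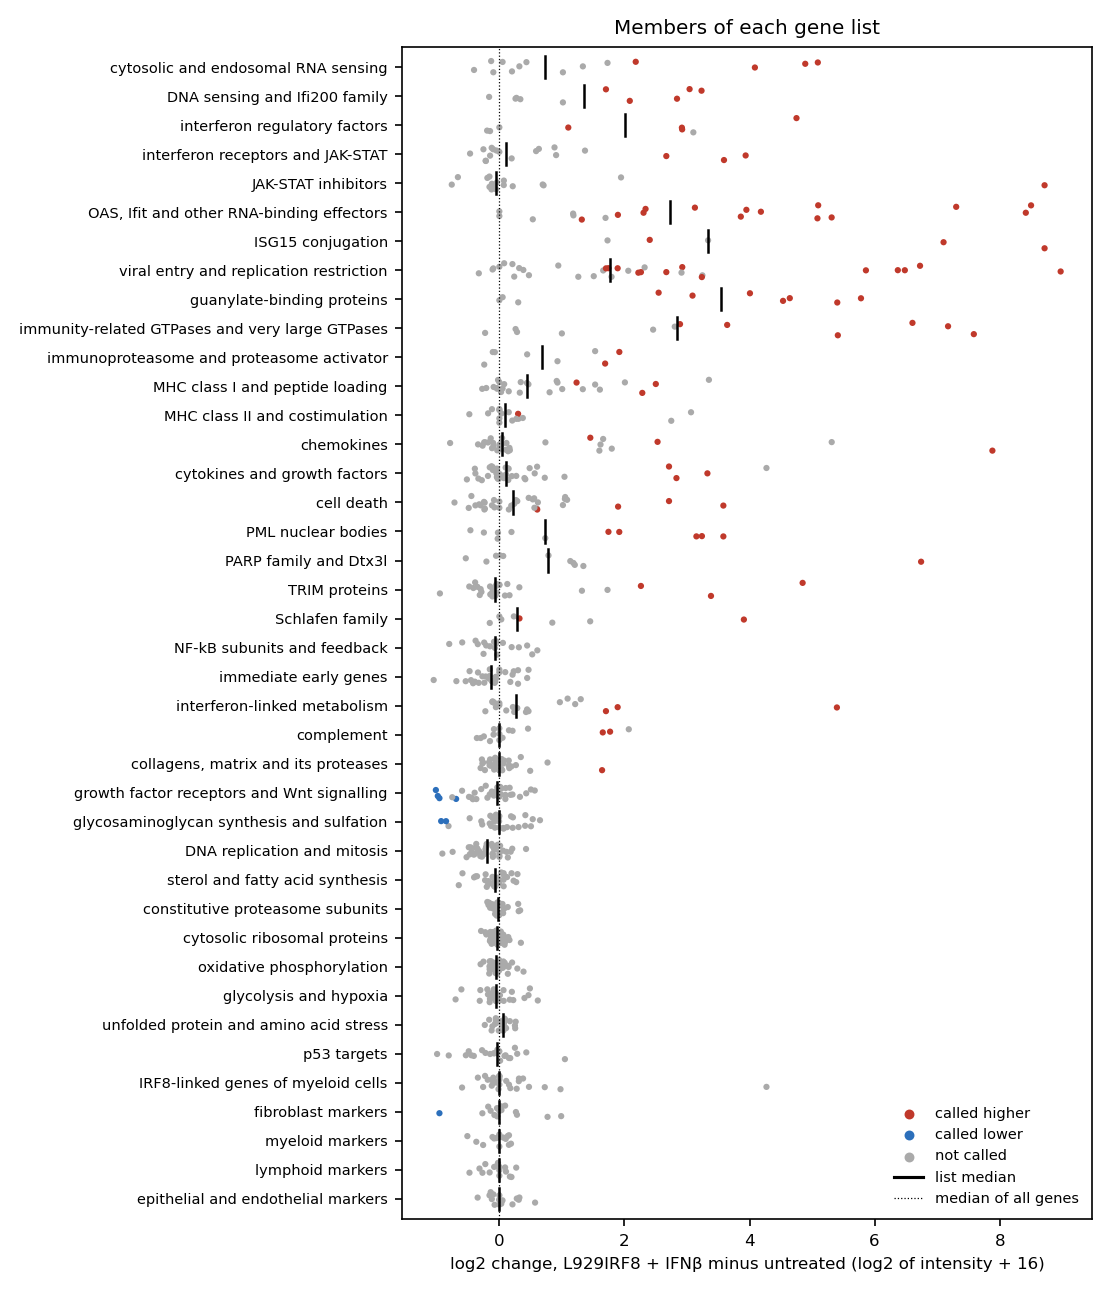
Log2 change with IFNβ in L929IRF8 (horizontal) of every measured member of the main gene lists, 1 row for each list, with members that passed coloured and a bar at each list's median. Passing members of the antiviral lists lie to the right, and the lists of basic cell functions centre near 0.

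Measured falls reached 2.26-fold. Of the 32 fallen genes, 14 passed with the replicate number as a block, 13 when only probes above the bound were tested and 8 without the floor at 0. Ahdc1, a gene for an AT-hook DNA-binding protein, fell 2.26-fold, to 110.0 and 109 after IFNβ against 251 and 243 untreated (limma adjusted p = 0.0154). Trib2, a pseudokinase, fell 1.75-fold, to 635 and 668 after IFNβ against 1151 and 1134 untreated (limma adjusted p = 0.0133). Get1, part of the machinery that inserts tail-anchored proteins into membranes, fell 1.81-fold, to 988 and 1072 after IFNβ against 1764 and 1968 untreated. The call was lost in 6 of the 8 fits that left out 1 array for Ahdc1 (adjusted p from 0.0523 to 0.0702), in 4 for Get1 (0.0702 to 0.0744) and in 3 for Trib2 (0.0503 to 0.0601).

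Receptors and sulfation enzymes stood among the falls. Of 38 growth factor receptor and Wnt genes, 4 passed and all were lower, against 0.253% lower among all genes; the list was drawn up with earlier results of these data known, and 1 passed without any 1 array other than the IFNβ L929 ones. Pdgfra, the platelet-derived growth factor receptor alpha, fell 2.08-fold, to 103 and 112 after IFNβ against 235 and 214 untreated (limma adjusted p = 0.0238, and 0.0509 to 0.0948 without any 1 array other than the IFNβ L929 ones), and Lrp6, a Wnt coreceptor, fell 1.74-fold, to 78.9 on both arrays after IFNβ against 131 and 144 untreated. Lpar2, a receptor of lysophosphatidic acid, was at least 1.98-fold lower, at 15.7 and 14.5 after IFNβ against 45.4 and 48.3 untreated. Its probe ILMN_2661082 was also lower (log2 -0.85) and did not pass (limma adjusted p = 0.409). Dvl2, the fourth, was under the bound in both groups, and its call and that of Lrp6 were lost in 6 and 8 of the 8 fits without 1 array. Pdgfra was also the 1 of 17 fibroblast markers that passed.

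Of 31 genes of glycosaminoglycan synthesis and sulfation 2 passed, both lower, and 0 or 1 passed in fits without 1 array. The median log2 change of these 31 genes was -0.008, and 0.253% of all genes were lower. This list, too, was drawn up with earlier results of these data known. Chst1, a sulfotransferase acting on keratan sulfate, fell 1.91-fold, to 1844 and 1757 after IFNβ against 3682 and 3224 untreated (limma adjusted p = 0.0426). Hs6st1, which sulfates heparan sulfate, fell 1.84-fold, to 388 and 363 after IFNβ against 698 and 683 untreated (limma adjusted p = 0.0243). The call of Chst1 was lost in 8 and that of Hs6st1 in 6 of the 8 fits without 1 array. Fv1, a mouse gene that restricts retroviruses, fell 1.85-fold through ILMN_1237595, to 51.2 and 49.6 after IFNβ against 89.7 and 97.1 untreated, and its other probes did not pass.

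Clec2e fell where its relative Clec2d rose. Its probe ILMN_2679704 read 8.2 and 13.6 after IFNβ against 179 and 147 untreated, at least 6.85-fold lower (log2 -2.74 ± 0.16 SE, limma adjusted p = 0.00732), and this call held in 8 of 8 fits that left out 1 array. A second, dim Clec2e probe, ILMN_2624092, read 33.6 and 37.9 after IFNβ against 22.2 and 21.9 untreated and did not pass. Both genes encode C-type lectins of the natural killer gene complex.

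**Figure D4:**
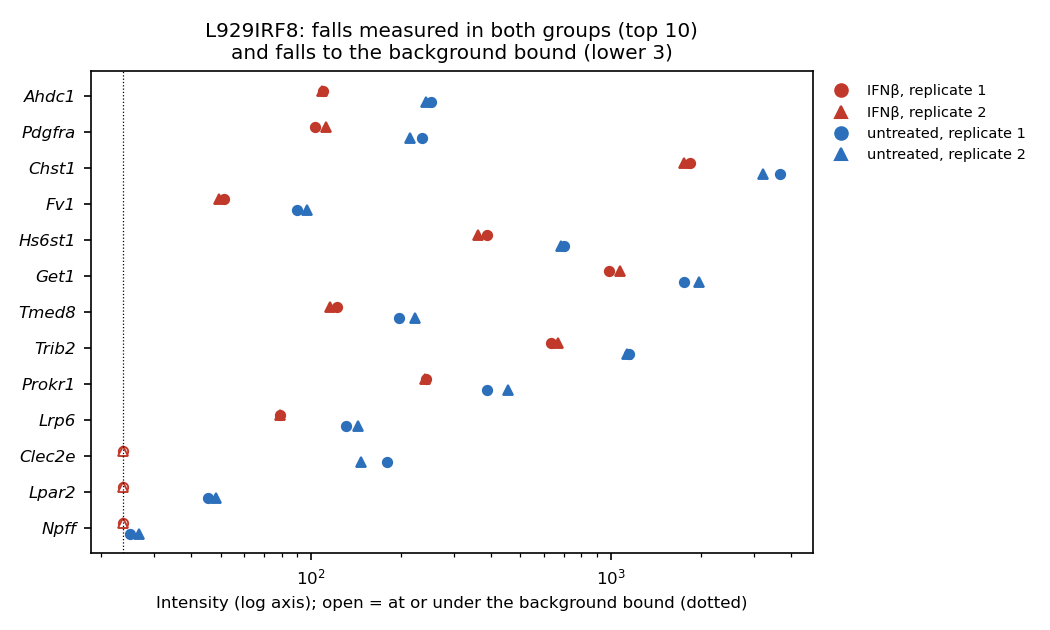
Intensity (log scale) on each array for the genes with the largest measured folds down and for those with a lower limit down, IFNβ L929IRF8 arrays drawn beside untreated ones, with the bound of 23.7 marked. The IFNβ points of each gene lie below its untreated points, and Clec2e, Lpar2 and Npff end under the bound; the call of Npff was lost in 6 of the 8 fits without 1 array.

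Other groups gave no gene that passed, where 0.922% of all genes were higher and 0.253% lower. At these shares, 0 calls do not set lists of such sizes apart. In the NF-kB list (19 genes) and the immediate early list (30) 0 passed, and the median log2 changes were -0.07 and -0.14. Rela, an NF-kB subunit, read 2357 and 2855 after IFNβ against 1928 and 2654 untreated, with overlapping groups. None of the 43 DNA replication and mitosis genes passed, while 20 of them had both IFNβ arrays below both untreated arrays, against 21.5% of all genes and 26.9% of those above the bound, and their median log2 change was -0.20. Ccnd1, a cyclin of the early cell cycle, read 17407 and 12537 after IFNβ against 17407 and 12335 untreated.

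Lists of 57 ribosomal protein genes, 40 of oxidative phosphorylation, 30 of the constitutive proteasome, 30 of sterol and fatty acid synthesis, 28 of glycolysis and hypoxia, 23 of stress responses and 23 p53 targets each gave 0 calls. Their median log2 changes lay between -0.08 and 0.06. With 0.922% of all genes higher and 0.253% lower, 0 calls do not set lists of these sizes apart. Of 27 genes linked to IRF8 in myeloid cells 0 passed. One of these, Il18, read 804 and 309.8 after IFNβ against 10.8 on both untreated arrays, at least 21.1-fold higher with an adjusted p of 0.0628 by limma.

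The ISRE core GAAANNGAAA, searched on both strands with N for any base, was counted in all promoter windows. Windows were found for 105 of the 133 risen genes and 27 of the 32 fallen genes. Each gene was counted once, as holding a motif if any of its windows matched. Counting is a description that was not tested, and the number of windows per gene was not taken into account. The core stood in 38 of the 105 (36.2%) and in 0 of the 27. It stood in 229 of the 6397 genes with a window that were above the bound and did not pass (3.58%). Over all 27025 genes of the promoter table the share was 3.99%. The ETS-IRF composite GGAANNGAAA stood in 15.2% of the risen genes, 3.70% of the fallen genes and 2.64% of those that did not pass, with 3.16% over the table. The GAS core TTCNNNGAA stood in 21 of the 105 risen genes, in 7.41% of the fallen genes and in 8.32% of those that did not pass, with 9.55% over the table.

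The risen genes with the ISRE core had a median log2 change of 4.01 (38 genes), and those without it 2.14 (67 genes). Among the 105 risen genes, 8 held both the ISRE core and the ETS-IRF composite, in the same or in different windows. In 5 of these the matches shared bases. Both the ISRE and the GAS core stood in 11 genes, again in any window, and 51 of the 105 genes held none of the 3 motifs. The 54 ISRE core matches began a median of 57 bases before the start, 37 of them within 200 bases before it and 12 after it.

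**Figure D5:**
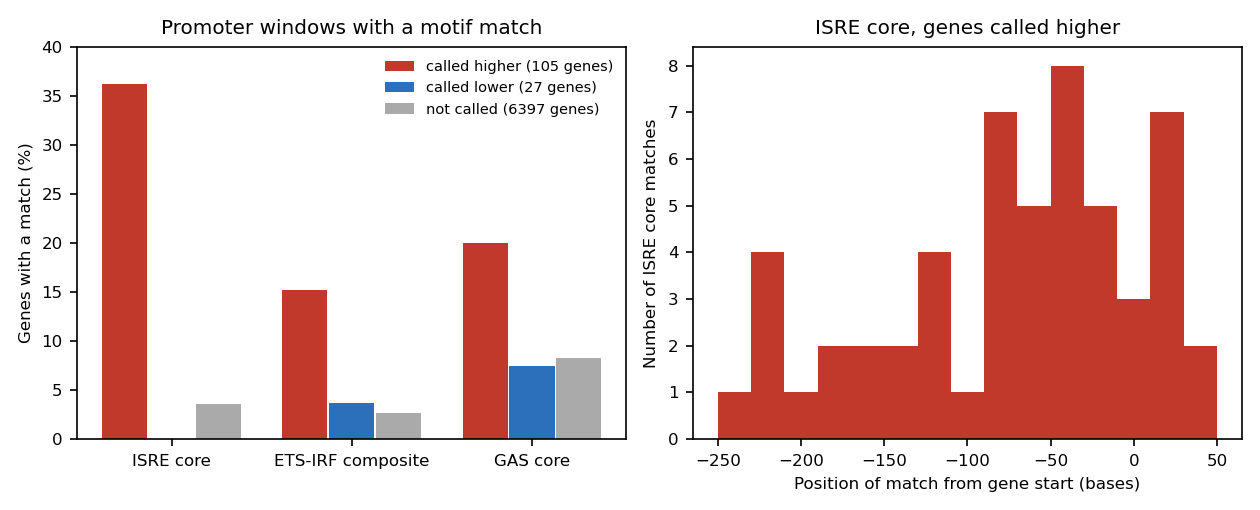
Share of genes (percent) that hold each motif in any promoter window, among genes called higher, genes called lower and genes not called. Beside it stands the number of ISRE core matches in the risen genes by position from the gene start (bases). The ISRE core stands in 36.2% of the risen genes with a window and in 3.58% of those not called.

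The same treatment of L929 gave the comparison for these changes. The calls in both lines use the same estimate of spread for each probe. They are therefore not independent, and their overlap was not tested. Of the 133 risen genes 122 were also higher in L929, where 1.09% of all genes were, and of the 32 fallen genes 22 were also lower, against 0.319% of all genes. The 21 others changed in the same direction there, and the lowest adjusted p of limma's test of the difference between the lines among them was 0.507. The log2 change was smaller in L929IRF8 than in L929 for 66.2% of the 133 genes and for 52.0% of all genes above the bound, with median differences of -0.11 and -0.01.

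The difference between the lines passed for 1 probe of 25697 (0.00389%). It belongs to Oas1b, a member of the oligoadenylate synthetase family whose variants set flavivirus susceptibility in mice. In L929IRF8, Oas1b read 215 and 218 after IFNβ against -8.1 and -7.0 untreated. It was at least 9.13-fold higher (log2 3.86 ± 0.03 SE, limma adjusted p = 2.26e-05). Its log2 rise was 4.99 in L929, a difference of -1.13 ± 0.04 (SE, L929IRF8 minus L929) (adjusted p = 0.0363 by limma). All 4 untreated readings, -10.5 and -3.2 in L929 included, lie below 0 and were therefore set to the same floor, which gives them no spread. Without the floor the difference was -1.03 ± 0.23 (adjusted p = 1 by limma). With the replicate block or with only probes above the bound, 0 probes passed. The next genes by p were Lrrn3, Tnrc18, Abcd3 and Bnip5, with adjusted p from 0.305 to 0.334, and did not pass.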

How the data were processed

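The authors deposited 1 table of linear intensity values from Illumina mouse bead arrays, with 25697 probes on each of 8 arrays. How they were processed is not given in the sources used here. Values reach below 0 and nearly share 1 distribution on all arrays, as after background subtraction and quantile normalization, so no further normalization was applied, and a shift common to most genes cannot be seen. Probes were named from the platform annotation, and no probe coordinates were used.

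The log2 of the intensity plus 16, with negative values taken as 0, was analysed, which understates changes of dim genes. The 8 arrays entered 1 limma fit with a mean per group (limma 3.58.1, lmFit and eBayes, R 4.3.3), which has 4 residual degrees of freedom and a prior of 0.684. P-values were adjusted over all 25697 probes by Benjamini-Hochberg at a threshold of 0.05. They measure the spread between these arrays, and the smallest p that exact permutation of 2 against 2 arrays allows is 0.333 (two-sided). Folds are ratios of geometric means with values raised to 23.7, and SE is that of limma. The fit was tested on simulated data with independent noise on each array, which checks the size of the estimated changes. It does not give the error rate of the calls in these data. The number of arrays limits the precision. Probe and group labels give no slide or scan, so no named batch was tested. The replicate number entered as a block only in alternative fits, which are given below.

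Named genes are, among those that passed and exceeded the bound, the 12 largest measured rises, the 12 largest lower limits up, the 10 largest falls, all lower limits down, up to 4 members of each list and 5 for the difference between lines; others are added where the text says so or to complete a pathway. The members and the gene lists were chosen with earlier results of these data known. Alternatives changed the offset, the floor, the filter, the trend, the replicate block, the normalization and the arrays included.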

Additional observations from a re-analysis of the deposited data

Results flagged for a closer look

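Oas1b stood out because its response differed between the lines in the test of that difference itself: the log2 rise in L929IRF8 was 3.86 and that in L929 was 4.99, a difference of -1.127 ± 0.04 (SE, L929IRF8 minus L929; limma adjusted p = 0.0363, 1 probe of 25697 past the threshold). Its second probe, ILMN_2823462, differed by -1.58 ± 0.50 on the log2 scale (SE, L929IRF8 minus L929) and did not pass (limma adjusted p = 0.889). Its untreated readings, -8.1 and -7.0 in L929IRF8 and -10.5 and -3.2 in L929, were all set to the floor of 0 and so add no spread. Without that floor, an alternative added after the data were seen, the adjusted p was 1, and with the replicate block or only probes above the bound 0 probes passed.

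Probes without a gene symbol belong to none of the genes described above. Of 1719 such probes, 16 were higher after IFNβ in L929IRF8 (0.931%) and 2 lower (0.116%). ILMN_2783223 read 1187 and 1392 after IFNβ against 8.5 and 19.5 untreated, a log2 change of 5.464 and at least 54.2-fold. ILMN_2593196 read 1704 and 1152 after IFNβ against 84.0 and 71.6 untreated, a log2 change of 3.921 (18.1-fold). ILMN_2655721 read 2662 and 2254 after IFNβ against 190.6 and 136.6 untreated, a log2 change of 3.796 (15.2-fold). All 3 were flagged as signals that rose above the untreated cells in probes not otherwise described, and their genes are unnamed here.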

How the results depend on the processing

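With an offset of 4, 20 genes above the bound were lower (32 as reported) and 16 probes differed between the lines (1 as reported). With values raised to the bound, 22 probes (54 as reported) and 20 genes were lower and 8 probes differed between the lines. Testing only probes above the bound gave 202 higher genes (133 as reported), 33 lower probes and 0 differing between the lines, and an intensity trend gave 11 differing. Without the floor at 0 and with an offset of 40, added after the data were seen, 217 genes were higher, 26 probes lower and 0 differed between the lines, and of the reported genes 129 of 133 and 8 of 32 passed. The 4 L929IRF8 arrays alone gave 1 probe and 1 gene higher (222 probes as reported) and 0 lower. Leaving out 1 array gave 113 to 458 probes and 73 to 117 genes higher, 22 to 303 probes and 9 to 39 genes lower, and 0 to 142 probes differing between the lines.

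Deviations of the same replicate number correlated between groups (r = 0.441 to 0.523 over the 6 pairs of groups, 11411 probes; 0.496 between the L929IRF8 groups), but with 2 numbers and no label for a shared batch the block is given here alone. With the replicate block 226 probes were higher, 66 lower and 0 differed between the lines, and of the reported genes 108 of 133 and 14 of 32 passed. With the block and only probes above the bound, added after the data were seen, 461 probes and 315 genes were higher, 184 and 143 lower and 0 differed.

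Both the 8 fits without 1 array and the 9 other settings on all arrays were passed by 58 of the higher genes, Usp18, Rsad2, Isg15 and Clec2d among them, and by 2 lower genes, Abi2 and Clec2e. Over single named genes and settings, 1734 stayed on the same side of the threshold (31 of them, of genes that did not pass, with the opposite sign), 407 lost the call, 5 gained it and no called gene changed sign. Cd86, Slfn1 and Dvl2 had a change of 0 with values raised to the bound. Signal near the background limits dim genes, whose folds are lower limits or are not given.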

Other observations

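Some of the largest differences did not pass, and they are named here after their values were seen. Cxcl9, a chemokine that attracts activated T cells, read 1422 and 331 after IFNβ against 2.9 and 0.7 untreated, at least 28.9-fold higher (limma adjusted p = 0.127). Cd274, the checkpoint ligand PD-L1, read 752 and 324 after IFNβ against 58.5 and 34.2 untreated, 11-fold higher (limma adjusted p = 0.104). Irf5 read 188 and 88.8 after IFNβ against 2.2 and -3.8 untreated, at least 5.46-fold higher (limma adjusted p = 0.0545). In each of them IFNβ replicate 1 was the brighter, and the groups did not overlap. Altogether 17 genes above the bound had groups apart, a fold or lower limit of at least 4 and an adjusted p over the threshold.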
